A study of Mus musculus with 3 samples.

Results

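A group of 10 genes that regulate the actin cytoskeleton, cofilin among them, were followed in blood stem and progenitor cells of mouse fetal liver that carried, or did not carry, a transgene for DNMT3B7. They are Cfl1, Ssh3, Coro1b, Hcls1, Rhod, Arhgef7, Pak2, Rock1, Cdc42bpg and Cdc42ep2, 10 of the 38205 gene identifiers listed in the tables. They were chosen by name, by their known part in actin turnover, and with their levels and their ratios between genotypes already known, so those values are given as a description. The estimate of each was marked OK in all 3 libraries. The cells were LSK cells, sorted as lineage-negative, Sca1-positive and c-Kit-positive, from C57Bl/6 embryos at E14.5. The 3 libraries came from embryos homozygous for the DNMT3B7 transgene, from hemizygous embryos and from wild-type (WT) embryos, with cells of 4 to 5 embryos pooled for each. DNMT3B7 is a shortened version of DNMT3B, an enzyme that methylates DNA, and the promoter that drives the transgene is not given in the sources used here. Since there is 1 library per genotype, no difference below could be checked on replicates: it is a difference between libraries. In such pooled samples, fewer cells of a type and less RNA per cell cannot be told apart.

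Actin filaments grow at one end and are taken apart at the other, and blood cells depend on this turnover to migrate, divide and hold to their niche. Cofilin cuts and dissolves old filaments, the Arp2/3 complex branches new ones, and small GTPases such as Rac and Cdc42 switch the process on at the membrane. Kinases below small GTPases, PAK below Rac and Cdc42 and ROCK below RhoA, act on the LIM kinases. The LIM kinases phosphorylate cofilin and so silence it, and slingshot phosphatases remove that phosphate.

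The deposited FPKM (fragments per transcript length and library depth) were divided by 4245, which brings the mean library sum close to 1000000, and are called values below. They are levels per transcript length. Levels could be read in parts of the genome only. Runs of high values lay at the start of 10 chromosomes, and outside them genes that all cells need were mostly listed at or near 0. Of 430 constitutive genes outside these segments, 194 were listed at 0 in all 3 libraries, against 0 of 25 inside, where 23 of 25 were high. All 10 actin regulators lay inside: 6 on chromosome 19, 2 on chromosome 16, and 1 each on chromosomes 8 and 18. The genes of the sort's own markers Sca1 (Ly6a) and c-Kit (Kit) lay outside, so the labelled cell type could not be checked on them. The step between low values gave about 2310000 fragments on listed genes for the homozygous, 3010000 for the hemizygous and 3030000 for the WT library. That holds at the median transcript length. At the longest transcript length it gave about 4800000, 5950000 and 5690000 in the same order, so depth is known only roughly. The order of the hemizygous and WT libraries also changed. The mitochondrial mRNAs took 51.8% of the fragments on the 1435 readable genes, themselves included, in the homozygous, 60.7% in the hemizygous and 64.5% in the WT library.

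The 10 genes spanned a wide range of levels, and the order was nearly the same in each library. Cfl1, the gene of cofilin, stood at 9671 in the homozygous, 9022 in the hemizygous and 10185 in the WT library. It was the top nuclear gene of the segments in each library, of 907 genes at or above a value of 1 in the homozygous, 907 in the hemizygous and 900 in the WT library. Coro1b came next, then Hcls1 and Pak2, Rock1, Arhgef7, the pair Ssh3 and Cdc42bpg, and at the low end Cdc42ep2 and Rhod. The counting intervals of Hcls1 and Pak2 overlapped in all 3 libraries, those of Ssh3 and Cdc42bpg in the WT library, and those of Rock1 and Arhgef7 and of Rhod and Cdc42ep2 in the homozygous library, so these neighbours are not separated there. Every other pair of neighbours was farther apart than its 95% counting intervals. The order differed in 2 places: in the homozygous library Cdc42bpg stood above Ssh3 and Rhod above Cdc42ep2, while in the hemizygous and WT libraries each stood below. The counting intervals of levels are exact Poisson intervals on estimated fragments, and those of log2 ratios are normal intervals from the counting SE. They cover counting error only.

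**Figure D1:**
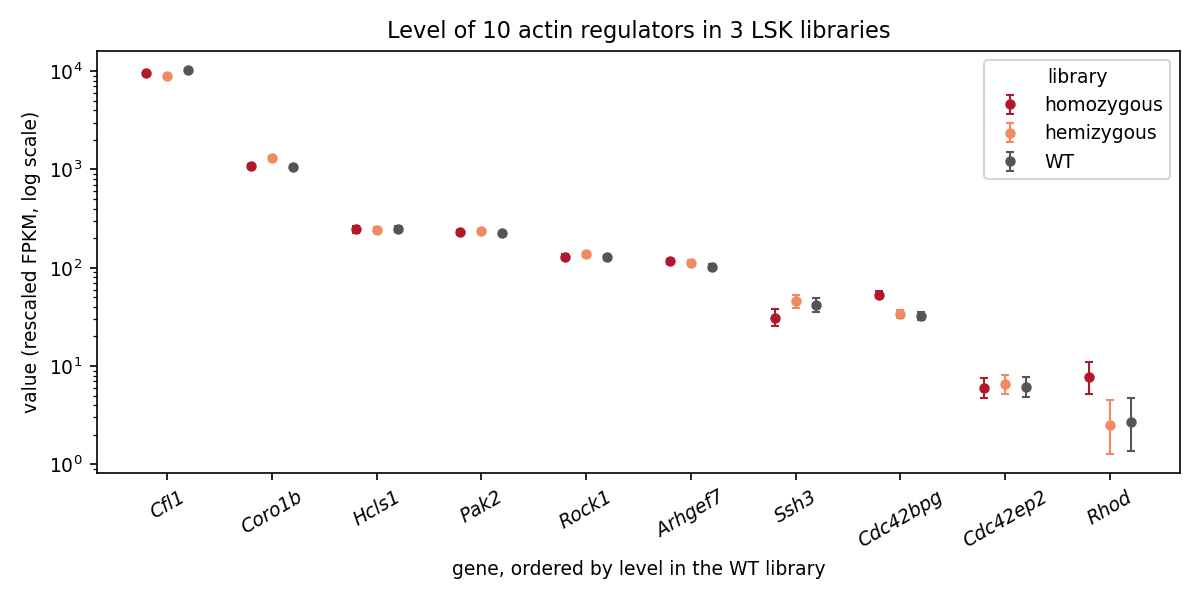
Level of each of the 10 genes as rescaled FPKM on a log axis (y), by gene in the order of the WT library (x), with 1 point per library and bars for the 95% counting interval. Cfl1 lies far above the others in all 3 libraries, and Rhod and Cdc42bpg have their highest point in the homozygous library (Rhod 7.66, Cdc42bpg 53.4).

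Cofilin is switched off by phosphate on the serine that follows the initiator methionine and 1 further residue in the messenger. That site is shown because the kinases and the phosphatase among these genes act on it, the kinases by way of the LIM kinases. The first 30 coding bases of transcript Cfl1-201 (GENCODE M21), with the serine codon, codon 3 counted from the ATG, in capitals, are:
Cfl1: atggccTCTggtgtggctgtctctgatggt

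The enzyme that DNMT3B7 is a version of methylates cytosine in CG. The CG sites before the start of transcription are therefore shown for 3 of the genes, whose levels lie far apart. Windows of 250 bases from RefSeq (GRCm38.p6) were found for 5 of the 10 genes, as 8 windows. Methylation was not analysed here. The windows of Cfl1 (chr19:5490205-5490454, plus strand), Hcls1 (chr16:36934733-36934982, plus strand) and Cdc42ep2 (chr19:5924817-5925066, minus strand) read, 5′ to 3′ with each CG in capitals:
Cfl1: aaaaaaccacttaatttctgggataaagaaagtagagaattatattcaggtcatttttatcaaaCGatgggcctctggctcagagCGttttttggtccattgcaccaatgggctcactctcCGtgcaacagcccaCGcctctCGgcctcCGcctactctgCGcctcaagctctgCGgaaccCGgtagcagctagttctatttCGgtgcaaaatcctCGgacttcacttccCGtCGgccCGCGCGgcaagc
Hcls1: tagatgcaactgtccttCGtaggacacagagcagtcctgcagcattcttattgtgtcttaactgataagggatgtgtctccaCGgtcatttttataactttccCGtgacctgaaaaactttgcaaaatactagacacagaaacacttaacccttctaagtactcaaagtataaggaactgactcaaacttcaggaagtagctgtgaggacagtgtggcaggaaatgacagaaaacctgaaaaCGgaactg
Cdc42ep2: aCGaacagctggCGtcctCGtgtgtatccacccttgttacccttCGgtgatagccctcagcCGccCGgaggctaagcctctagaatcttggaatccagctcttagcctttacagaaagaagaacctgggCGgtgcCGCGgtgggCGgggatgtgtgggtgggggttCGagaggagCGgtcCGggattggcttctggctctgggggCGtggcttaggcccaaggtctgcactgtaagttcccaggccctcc

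The Cfl1 window holds 16 CG sites, and 25.4% of all 32851 RefSeq windows of this length hold as many or more. The Cdc42ep2 window holds 14 (29.4% of windows) and that of Hcls1, a gene of blood cells, only 4 (62.2%). The median window holds 6. The 2 windows of Ssh3 hold 16 and 19, and the 3 of Arhgef7, which has several starts, 45, 30 and 2. The CArG box, the site of the serum response factor that drives many actin genes, has a palindromic pattern, so both strands were searched at once, and lies in 0 of these 8 windows and in 1.47% of all windows. A window without these letters says nothing about the factor.

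Cofilin itself differed little between the libraries, and its ratios were small but precise. Cfl1 (ENSMUSG00000056201) had a log2 ratio of value + 1 of -0.07 for homozygous versus WT (95% counting interval -0.10 to -0.05). That ratio turned to 0.36 when each library was scaled to the same sum, and was -0.03 under median-ratio scaling. For hemizygous versus WT it was -0.17 (-0.20 to -0.15), -0.01 under sum scaling and -0.20 under median-ratio scaling. Between the transgenic libraries, homozygous versus hemizygous, it was 0.10 (0.08 to 0.12), 0.37 under sum scaling and 0.16 under median-ratio scaling. These intervals rest on an estimated 28112 fragments in the homozygous, 29110 in the hemizygous and 31193 in the WT library, so they show how precisely the libraries were counted and not how much embryos vary. Scaling to the same sum moved the median log2 ratio of all genes compared by 0.41 for homozygous versus WT, 0.15 for hemizygous versus WT and 0.26 for homozygous versus hemizygous. Of the 50-base stretches of the Cfl1 transcripts, 18.3% also occur in other genes. Those shared with Snx32 make up 12.9% of all its stretches, and Snx32 is a gene whose exons overlap those of Cfl1 on the opposite strand and which had values of 20.9, 24.9 and 23.1 in the homozygous, hemizygous and WT libraries. The strand setting of the counting is not given in the sources used here.

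Ssh3, a phosphatase of the slingshot family, had its lowest level in the homozygous library. Ssh3 (ENSMUSG00000034616) stood at 31.1 in the homozygous, 45.6 in the hemizygous and 41.8 in the WT library. For homozygous versus WT the log2 ratio was -0.41 (counting SE 0.19), short of a 2-fold difference, and 0.01 under sum scaling, where the median of all genes lay at 0.36. For homozygous versus hemizygous it was -0.54 (95% counting interval -0.89 to -0.18; counting SE 0.18) and -0.27 under sum scaling, less than 2 such SE from 0, and for hemizygous versus WT 0.12 (-0.20 to 0.44). The ratio of Ssh3 to Cfl1 within a library, which no scaling can move, was 0.322% in the homozygous, 0.506% in the hemizygous and 0.410% in the WT library. Relative to the mRNA of its substrate, the mRNA of the phosphatase was thus also lowest in the homozygous library. No counting interval was computed for this ratio, and Ssh3 alone has a counting SE of 0.19 for homozygous versus WT. Protein was not measured. None of the 4 LIM and TES kinases that oppose Ssh3 lay in the segments.

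Coro1b and Hcls1 act on the Arp2/3 complex from opposite sides. Coro1b (ENSMUSG00000024835), the coronin that restrains Arp2/3 and brings slingshot to the cell's leading edge, was at 1086 in the homozygous, 1308 in the hemizygous and 1070.5 in the WT library. On the common scale its highest level was in the hemizygous library, with ratios beyond counting error to both others. Its log2 ratio was 0.29 ± 0.04 (the error is the counting SE) for hemizygous versus WT and -0.27 ± 0.04 for homozygous versus hemizygous. Under sum scaling these were 0.45 and 0.00. The ratio for homozygous versus WT was 0.02 ± 0.04, and 0.45 under sum scaling. Under that scaling both transgenic libraries thus lay above WT and were level with each other. Cfl1 stood 8.91-fold above Coro1b in the homozygous, 6.90-fold in the hemizygous and 9.51-fold in the WT library, a ratio that no scaling moves. Ptprcap shares 10.9% of the Coro1b stretches and overlaps it on the same strand, and it had values of 1113, 1110.3 and 1185 in the homozygous, hemizygous and WT libraries. The part of this overlap in the Coro1b ratios was not tested. Rps6kb2 overlaps 1.40% of the Coro1b exon bases on the opposite strand, with values of 236, 308 and 358 in the same order of libraries. Hcls1 (ENSMUSG00000022831), the blood-cell relative of cortactin that activates Arp2/3, had the narrowest range of the 10 on the common scale, at 245 in the homozygous, 244 in the hemizygous and 249 in the WT library. For homozygous versus WT its log2 ratio was -0.02 with a counting SE of 0.08, and 0.41 under sum scaling, where it was no longer the narrowest.

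Rhod, a small GTPase known for endosome movement, had the largest ratio of the 10. Rhod (ENSMUSG00000041845) stood at 7.66 in the homozygous, 2.53 in the hemizygous and 2.68 in the WT library. The homozygous library was high, and the other two lay close together. The log2 ratio was 1.23 (95% counting interval 0.25 to 2.22) for homozygous versus WT, 1.29 (0.31 to 2.28) for homozygous versus hemizygous and -0.06 (-1.25 to 1.13) for hemizygous versus WT, which was 0.06 under sum scaling. These ratios rest on an estimated 30.7 fragments in the homozygous and 11.3 in each of the other libraries, and with a pseudocount of 5 in place of 1 both ratios of the homozygous library fell short of 1 (0.72 and 0.75). The intervals use the SE of the plain ratio, without the pseudocount, so at such low values they are approximate. A930001C03Rik, an unnamed noncoding transcript, overlaps 9.92% of the Rhod exon bases on the opposite strand and was at 2.02 in the homozygous, listed at 0 in the hemizygous and at 0.412 in the WT library. Its fragments cannot be told apart from those of Rhod over that stretch without the strand setting.

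The mRNAs of an exchange factor and the PAK and ROCK kinases were at similar levels in the libraries under the common scale. Arhgef7 (ENSMUSG00000031511), the exchange factor beta-PIX that loads Rac and Cdc42 with GTP and binds PAK kinases, was at 116 in the homozygous, 113 in the hemizygous and 102 in the WT library. The log2 ratio to WT was 0.18 ± 0.07 (counting SE) for the homozygous and 0.14 ± 0.07 for the hemizygous library, so both transgenic libraries lay above WT by a little more than counting error. Under sum scaling these ratios were 0.60 and 0.29. Pak2 (ENSMUSG00000022781), its partner kinase, was at 233 in the homozygous, 236 in the hemizygous and 225 in the WT library. The ratio for homozygous versus WT was 0.05 (95% counting interval -0.02 to 0.12). Rock1 (ENSMUSG00000024290), the kinase switched on by RhoA that acts on LIM kinase and on myosin phosphatase, was at 130.0 in the homozygous, 137 in the hemizygous and 127 in the WT library, with a log2 ratio of 0.03 (-0.07 to 0.13) for homozygous versus WT. For these kinases the counting intervals for homozygous versus WT reached no further than about 0.13 on this scale. They cover counting error only, so they do not bound the difference between genotypes. Under sum scaling the ratios were 0.48 for Pak2 and 0.46 for Rock1, near the shift of all genes.

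Of the Cdc42 effectors, the kinase stood higher in the homozygous library and the adaptor had nearly equal levels. Cdc42bpg (ENSMUSG00000024769), the Cdc42-binding kinase MRCK gamma, a relative of the ROCK kinases, was at 53.4 in the homozygous, 34.1 in the hemizygous and 32.3 in the WT library. The homozygous library stood apart, as for Rhod. Its log2 ratios, with counting SE, were 0.71 ± 0.09 for homozygous versus WT, 0.63 ± 0.09 for homozygous versus hemizygous and 0.08 ± 0.10 for hemizygous versus WT. This lies short of 2-fold, except under sum scaling, where the first ratio was 1.13, and 93.3% of the 789 genes that reached a value of 5 in the homozygous or WT library had a smaller absolute ratio. Relative to Ssh3 in the same library, Cdc42bpg stood at 172% in the homozygous, 74.8% in the hemizygous and 77.3% in the WT library. Ssh3 itself was lowest in the homozygous library, which widens this contrast. Relative to Rock1, which had similar levels in the libraries, Cdc42bpg stood at 41.1% in the homozygous and 25.4% in the WT library. The hemizygous library lay just below WT on that ratio. Cdc42bpg shared 0% of its stretches with other genes, and no annotated exon overlaps it. Cdc42ep2 (ENSMUSG00000045664), the Cdc42 effector Borg1 that binds septins, was at 6.03 in the homozygous, 6.53 in the hemizygous and 6.14 in the WT library. Its log2 ratio was -0.02 for homozygous versus WT and 0.35 under sum scaling, and its interval of -0.48 to 0.43 was wide, so a difference of that size was not detectable at this depth.

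**Figure D2:**
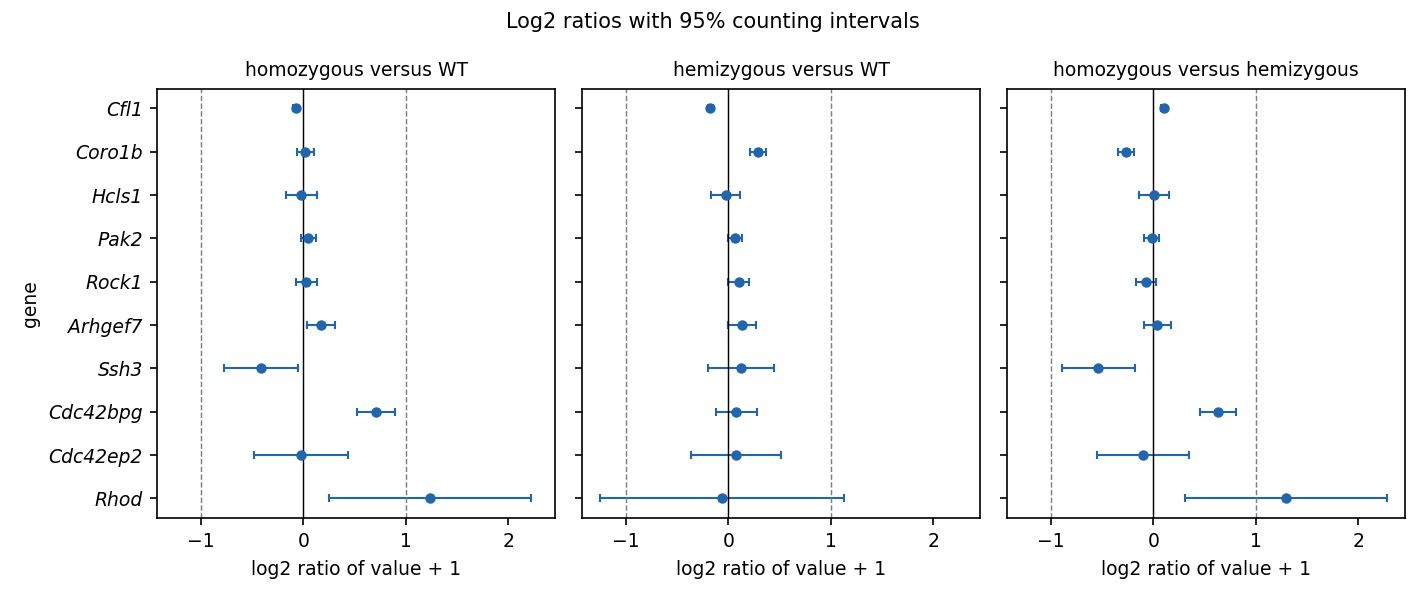
Log2 ratio of value + 1 (x) of each of the 10 genes (y) in the 3 comparisons of libraries, with bars for the 95% counting interval and dashed lines at a 2-fold difference. Rhod lies past the line in both comparisons of the homozygous library, Cdc42bpg and Ssh3 lie on either side of 0 in them (for Ssh3, sum scaling moves homozygous versus WT to 0.01), and in the hemizygous versus WT comparison all 10 lie between -0.17 and 0.29.

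The 10 are set here beside all genes. A gene was called higher or lower at a log2 ratio of 1 or more in size, and of the 10, 80.0% lay within 1.5-fold for homozygous versus WT, against 87.9% of all genes. For homozygous versus WT, 1 of 10 was called (Rhod, higher), where 4.36% of the 940 genes compared were called in either direction (2.13% higher and 2.23% lower). For homozygous versus hemizygous it was again 1 of 10, with 4.54% of 947 genes (1.69% higher and 2.85% lower), and for hemizygous versus WT 0 of 10, with 2.77% of 939 genes (1.81% higher and 0.958% lower). Since the genes were chosen with these ratios known, nothing is read from these counts. The median log2 ratio of the 10 was 0.03 for homozygous versus WT, against -0.04 for all genes, 0.08 for hemizygous versus WT, against 0.02, and -0.00 for homozygous versus hemizygous, against -0.05. The counting interval lay outside 0 for 5 of 10 in the homozygous versus WT comparison (Cfl1 and Ssh3 lower, Rhod, Arhgef7 and Cdc42bpg higher), where it did for 30.9% of all genes; under sum scaling neither Cfl1 nor Ssh3 was lower. For hemizygous versus WT it lay outside 0 for 4 of 10 (29.4% of all genes), namely Cfl1 on the lower and Coro1b, Arhgef7 and Rock1 on the higher side, Rock1 at the limit. For homozygous versus hemizygous it did for 5 of 10 (26.7%), namely Cfl1, Rhod and Cdc42bpg on the higher and Ssh3 and Coro1b on the lower side. Under sum scaling Coro1b was at 0.00 and Ssh3 at -0.27, less than 2 counting SE from 0. The comparisons share libraries, so they are not independent of each other.

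**Figure D3:**
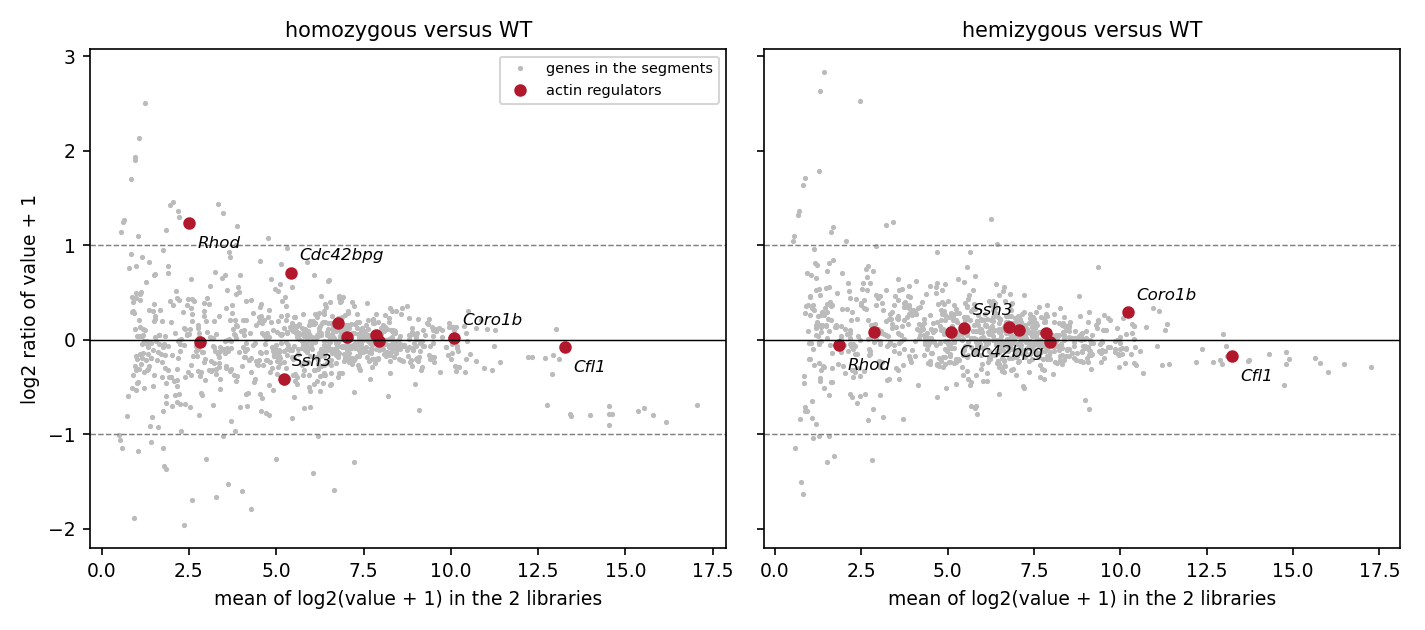
Log2 ratio of value + 1 (y) against the mean of log2(value + 1) in the 2 libraries (x) for all genes of the segments that reach a value of 1 in either library, grey, and the 10 actin regulators, red, with dashed lines at a 2-fold difference. In the homozygous versus WT panel Rhod (1.23) and Cdc42bpg (0.71) are the highest of the 10, and in the hemizygous versus WT panel Coro1b (0.29) is. Cfl1 lies just below 0 in both, at 0.36 and -0.01 under sum scaling.

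The wider actin machinery was covered thinly. Of 192 actin genes in 15 lists by role, 19 lay in the segments, the 10 described and 9 others, and each reached a value of 1. No gene was in the segments for the actins themselves (Actb and Actg1), the Arp2/3 complex, the formins, the capping proteins, the monomer-binding proteins, or tropomyosin and myosin II. None of the 9 others was called in any comparison. Of all genes, 4.36% were called for homozygous versus WT, 2.77% for hemizygous versus WT and 4.54% for homozygous versus hemizygous. With so few genes, nothing is read from this count. The median log2 ratio of the 9 others for homozygous versus WT was -0.02, against -0.04 for all genes, with a range of -0.24 to 0.25. Under sum scaling it was 0.38, against 0.36 for all genes. The highest of them was Coro7, a coronin of the Golgi, at 623 in the homozygous, 749 in the hemizygous and 697 in the WT library. Like Coro1b it had its top value in the hemizygous library, with log2 ratios, with counting SE, of 0.10 ± 0.05 for hemizygous versus WT and -0.26 ± 0.05 for homozygous versus hemizygous, the second turning to 0.01 under sum scaling. Among exchange factors, Arhgef18, which acts on RhoA, was at 164, 181 and 150.1 in the homozygous, hemizygous and WT libraries, and Tiam1, which acts on Rac, at 92.0, 92.9 and 93.7. Itsn1, an exchange factor for Cdc42, was at 37.5 in both transgenic libraries and 31.4 in the WT library, and its log2 ratio for homozygous versus WT was 0.25, close to its counting SE of 0.20. Tiam2 (7.53, 8.79 and 9.09), Arhgef10 (7.47, 6.26 and 6.38), the Cdc42 and Rac inhibitor Arhgap31 (15.3, 17.0 and 16.8) and the myosin light chain kinase Mylk (3.80, 3.53 and 3.79) were low in the homozygous, hemizygous and WT libraries. Lpp, a protein of focal adhesions, was at 10.5 in the homozygous, 14.2 in the hemizygous and 10.6 in the WT library, a log2 ratio of 0.39 ± 0.15 (counting SE) for hemizygous versus WT.

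The genes whose pattern over the 3 libraries lay nearest to that of Cfl1, by the distance of the log2 ratios to WT over 749 genes that reached 5 in every library, were Gm15764 (distance 0.01), Rce1 (0.01) and Atp6v1a (0.02). Rce1 is the protease that trims prenylated proteins, and Atp6v1a is a subunit of the vacuolar proton pump. For Rhod the nearest was Gm15694 (distance 0.04), at 21.3 in the homozygous, 8.26 in the hemizygous and 8.73 in the WT library. The next, 5330426P16Rik (0.42) and Gp5 (0.43), were much farther off. Gp5, a platelet glycoprotein, was at 30.1 in the homozygous, 17.7 in the hemizygous and 16.5 in the WT library. With 3 libraries such likeness rests on 2 ratios a gene and is a description.

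The readable markers of other cells did not all run the same way. Of 9 genes of vessel wall and stroma, Col4a1 and Col4a2 could be read, and both were, like Rhod and Cdc42bpg, highest in the homozygous library. Their summed value was 99.3 in the homozygous, 68.1 in the hemizygous and 52.6 in the WT library. The other 7 lay outside the segments, where levels could not be read. Of these, 3 (Cdh5, Col1a1 and Col3a1) were listed at 0 in every library, which says nothing about whether such cells were present. Of 6 megakaryocyte genes Gp5 and Gp1bb could be read, with sums of 34.9, 20.8 and 22.0 in the homozygous, hemizygous and WT libraries. Gp5 carries the higher sum of the homozygous library, while Gp1bb, at 4.76, 3.09 and 5.502 in the same libraries, was highest in WT. The Gp1bb log2 ratio for homozygous versus WT was -0.17 with a counting SE of 0.39, and 0.19 under sum scaling. Its order between these libraries thus lies within counting error. The summed value of the 3 readable of 7 lymphoid genes (Igll1, Vpreb1 and Vpreb2) was 192 in the homozygous, 400.4 in the hemizygous and 517 in the WT library, and that of the 4 readable of 8 erythroid genes 3285, 4012 and 3987. Among the erythroid genes Car1 went the other way, at 76.7 in the homozygous and 64.7 in the WT library, and under sum scaling the log2 ratio for homozygous versus WT was above 0 for Tfrc (0.09), Cpox (0.32), Car1 (0.67) and Car2 (0.13). The myeloid genes Cebpd and Mmp8, 2 of 6, summed to 35.8 in the homozygous, 39.7 in the hemizygous and 45.6 in the WT library, though Cebpd, the larger part, stood at -0.30 on the log2 scale for homozygous versus WT and at 0.12 under sum scaling. For liver parenchyma Ahsg alone of 5 could be read, at 3.67, 3.49 and 3.70 in the same libraries. The part of such cells in the ratios of Rhod, Cdc42bpg and Ssh3 was not tested.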

How the data were processed

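The authors deposited FPKM per gene with a status, per the file headers. Per the submitters' processing notes, the tools were TopHat2, Bowtie2 and Cufflinks, with no version, and the build was mm9. Which annotation they counted on is not given in the sources used here. Only the highest row of each of 38205 identifiers was kept, and 36463 (95.4%) were matched to GENCODE M21 (GRCm38) for gene type, transcript length and gene order. Promoter coordinates are on that build, not on the build of the files. All libraries were divided by 4245.

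For each chromosome the break was placed where the likelihood peaked. It used the share of coding genes whose deposited FPKM averaged 200000 or more, against the median share of chromosomes (3.62%). Constitutive genes and clustered families were left out. A segment was kept at a log likelihood gain of at least 5 and a share of at least 0.2. This rule was settled after the values were seen.

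For low genes with 1 transcript, the value times the transcript length less 200 bases came in steps. It fell on a whole number of steps, to within 0.05, for 72.9% of 781 values in the homozygous, 69.8% of 843 in the hemizygous and 72.0% of 768 in the WT library. That step was taken as 1 fragment, and counting errors came from fragments at the median transcript length. Genes were compared when the value was at least 1 in either library, with a pseudocount of 1. Ratios on the log2(value + 1) scale understate the change of low genes. The counting SE is that of the plain ratio, without the pseudocount. For low genes the intervals, and the counts of genes outside 0, are therefore approximate. No test was possible with 1 library per genotype. The scripts (Python 3.11.15, pandas 2.3.3, scipy 1.17.1) were tested on simulated data. The members, lists and tests were chosen with earlier results of these data known. All 10 members are named, as are the other actin genes of the lists in the segments with a value of at least 1, the 3 genes nearest in pattern to Cfl1 and to Rhod, and genes whose exons overlap a member. The actins, the sort's markers and the 3 vessel markers at 0, outside the segments, were added by name. Alternatives were other scalings, pseudocounts, minimum values, row and gene choices, transcript lengths and break settings.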

Additional observations from a re-analysis of the deposited data

How the results depend on the processing

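Rhod was past a 2-fold difference for homozygous versus WT and for homozygous versus hemizygous with a pseudocount of 1. It stayed so under sum scaling (1.59 and 1.53) and median-ratio scaling (1.27 and 1.34). A pseudocount of 0.1 can only enlarge its ratios. No minimum value, every listed gene and both other break settings change which genes are counted and leave its ratios as they are, so they are no check on it. Summed rows also left its ratios unchanged. Rhod reached a minimum value of 5 through the homozygous library alone, so that setting is no check on it either. With a pseudocount of 5 the count of members was 0 in both comparisons, and under sum scaling it was 2 for homozygous versus WT (Rhod and Cdc42bpg). No member passed for hemizygous versus WT under any of these settings. Counts over all genes varied more. With a pseudocount of 0.1 they were 43 for hemizygous versus WT and 73 for homozygous versus hemizygous, against 26 and 43. With a pseudocount of 5 they were 10 for homozygous versus WT, 4 for hemizygous versus WT and 9 for homozygous versus hemizygous, and with a minimum value of 5 they were 22, 8 and 19 in that order. Over every listed gene, readable or not, they were 980, 1128 and 1171. A break setting of 1000000, chosen after seeing the data, left 216 genes and 6 of the 10 members (Hcls1, Arhgef7, Pak2 and Rock1 fell outside), with counts of 4, 6 and 7. For homozygous versus WT the split over all genes was 20 higher and 21 lower, and under sum scaling 44 and 10. For homozygous versus hemizygous it was 16 and 27, and under sum scaling 30 and 15. Sum scaling took 21 of the 30 member ratios out of their counting intervals, and median-ratio scaling 2. The sign changed for 10 ratios under sum scaling and for 3 under median-ratio scaling, none of them past 2-fold. With the longest transcript the counting interval left 0 for Pak2 (hemizygous versus WT) and Rock1 (homozygous versus hemizygous). No paired analysis was possible because each genotype has 1 library. Depth limits Rhod and Cdc42ep2 most, and a difference in them within their intervals was not detectable.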
